A study of Mus musculus with 4 samples.

Results

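Gene expression was compared between Runx1+ cells of the intra-aortic hematopoietic clusters (IAHCs) and endothelial cells (ECs) of the mouse aorta-gonad-mesonephros (AGM) region at E11. Genes entered the comparison when they reached 10 TPM, a level scaled for gene length and library total, in the higher of the 2 libraries. This rule kept 7715 of the 51205 genes in the deposited table. The study sorted 4 populations and sequenced 1 library of each, so every difference below is between 2 libraries and has no replicate check.

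Both populations came from embryos carrying a GFP reporter in the Runx1 locus, and both were sorted as viable NG2-PDGFRβ-CD31+ cells, which leaves out pericytes and keeps cells with the endothelial surface protein CD31. ECs were in addition ckit-CD45-Runx1(GFP)-. Runx1+ IAHCs were ckit+Runx1(GFP)+, and no CD45 gate was applied to them. The labels give the genotype as WT, whereas a figure legend of the supplement describes pooled Runx1-GFP/+ and Runx1-GFP/GFP embryos. The number of reporter copies behind each library is therefore not known. The third population set beside them below, the hemogenic endothelial cells (HECs), was ckit-CD45-Runx1(GFP)+. By the study's description far more ECs than Runx1+ IAHCs were collected, and only part of each lysate was turned into cDNA. What cell number adds to the differences was not tested.

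Blood stem and progenitor cells of the embryo arise from the aortic endothelium. Hemogenic endothelial cells lose endothelial junctions and identity, take on a hematopoietic program and bud into the lumen as clusters, a passage called the endothelial-to-hematopoietic transition. The transcription factor RUNX1, which acts with its partner CBFβ, is required for it. The repressors GFI1 and GFI1B act below RUNX1, and PU.1 (Spi1), MYB and Ikaros (Ikzf1) are among the factors that set up blood lineages afterwards. The comparison sets Runx1(GFP)- endothelium of the AGM against sorted ckit+Runx1(GFP)+ cells that the study names IAHCs. Whether the sorted ECs would enter that passage, and whether each sorted IAHC lay in a cluster, was not observed.

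The EC library held 13188715 reads and the Runx1+ IAHC library 15412284, as recovered from the TPM values. In ECs 23153 genes had a read, and in Runx1+ IAHCs 21171 genes. Genes of the mitochondrial chromosome took 10.5% of all TPM in ECs and 5.22% in Runx1+ IAHCs, and 4 nuclear copies of mitochondrial genes on chromosome 1 took another 10.8% and 6.28%. Folds and their intervals were taken from the recovered reads. Intervals are exact 95% intervals and cover counting error only, since amplified reads lacking molecular identifiers are not separate molecules.

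Runx1+ IAHCs stood above ECs by 4-fold or more for 414 of the 7715 genes (5.37%) and below them for 646 (8.37%), by a difference of log2(TPM + 1) of 2 or more in either direction. Most of the genes compared were closer than that, with 4904 (63.6%) within 2-fold. The 7715 genes included 5850 protein-coding genes and 1511 processed pseudogenes. Of the protein-coding genes 332 (5.68%) were higher and 576 (9.85%) lower. Of the processed pseudogenes 56 (3.71%) were higher and 5 (0.331%) lower. The shares and the median over all genes, set beside the lists below, include both kinds. The median difference over all genes compared was 0.27 (quartiles -0.46 and 0.88), so a gene at no difference lay slightly below the bulk of genes. When the libraries were scaled to a median ratio of 1, the counts became 281 higher and 737 lower, and the share of higher genes among those 4-fold apart went from 39.1% to 27.6%. At the edge of the rule, the nearest genes on the higher side had differences of 2.008 inside and 1.999 outside it, and on the lower side -2.003 and -1.998. The 414 higher genes together made up 0.369% of all TPM in ECs and 3.41% in Runx1+ IAHCs. The 646 lower genes made up 9.10% in ECs and 0.396% in Runx1+ IAHCs. In bulk samples such as these, fewer cells of a type and less RNA per cell cannot be told apart.

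**Figure D1:**
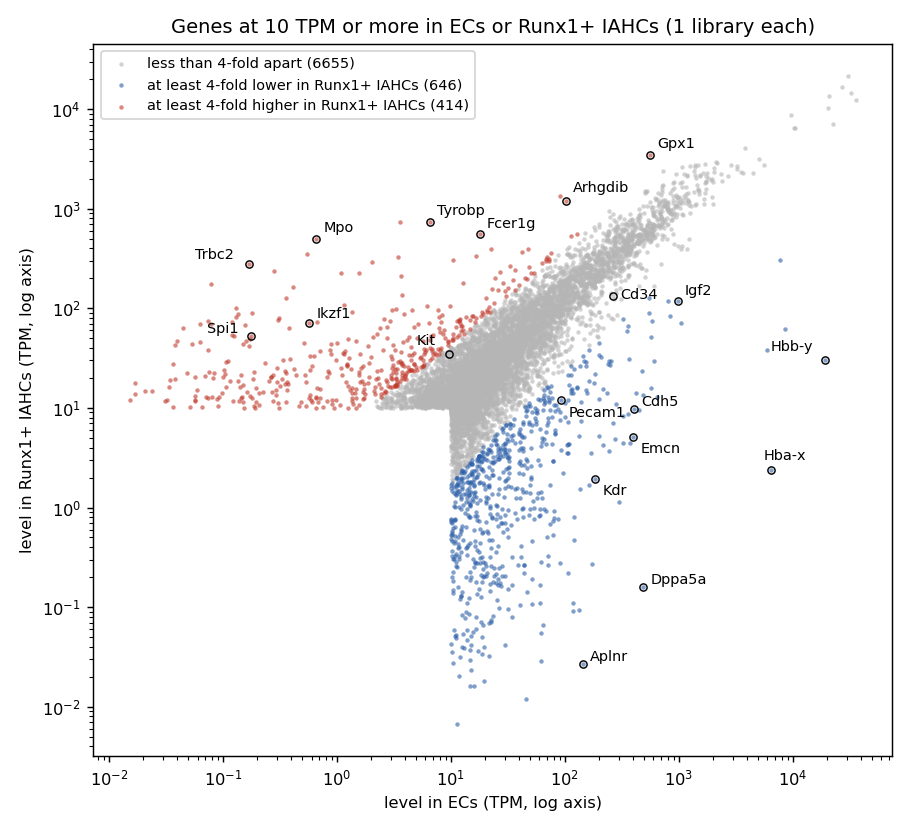
Level of each of the 7715 genes in ECs (x axis, TPM, log scale) and in Runx1+ IAHCs (y axis, TPM, log scale), 1 library each; every point is a gene and circled genes are named. Red points are the 414 genes past the 4-fold rule towards Runx1+ IAHCs, with Mpo, Trbc2 and Spi1 far to the left, and blue points the 646 genes past it towards ECs, with the globin genes Hba-x and Hbb-y and the endothelial genes Cdh5, Emcn and Kdr.

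The genes behind the sort were examined before any others, and their differences follow at least in part from the gates. Runx1 (GRCm38 chromosome 16, 92601466 to 92826149) was at 0.311 TPM in ECs (interval 0.203 to 0.43) and 10.1 TPM in Runx1+ IAHCs (interval 9.50 to 10.6), 33.4-fold higher (23.3 to 49.8). Its exonic length was found by search, so these reads are less certain. Kit, the receptor for stem cell factor, was at 9.69 TPM in ECs, although that gate excluded ckit, and at 34.5 TPM in Runx1+ IAHCs, 3.56-fold higher (3.29 to 3.87) and short of the 4-fold rule. Ptprc, the CD45 gene, had 0.149 TPM in ECs and 11.4 TPM in Runx1+ IAHCs, 80.2-fold higher (52.8 to 128). Pecam1, the CD31 gene, had 93.4 TPM in ECs and 11.9 TPM in Runx1+ IAHCs, 7.86-fold lower (7.28 to 8.50), although CD31 was required of both populations. The pericyte genes stayed below 10 TPM, with Cspg4 (NG2) at 0.139 and 0.00823 TPM and Pdgfrb at 0.217 TPM in ECs and 3.30 TPM in Runx1+ IAHCs.

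Transcripts that mark endothelium were lower in Runx1+ IAHCs. Of 28 pan-endothelial genes listed, 25 were compared, and 24 of these passed the 4-fold rule towards ECs, with a median difference of -3.52 against 0.27 over all genes. Cdh5 (chromosome 8, 104101625 to 104144511), which encodes VE-cadherin of the adherens junction, was at 401 TPM in ECs (interval 395 to 408), against 9.65 TPM in Runx1+ IAHCs (interval 8.72 to 10.6), 41.7-fold lower (37.8 to 46.1). Kdr, the main VEGF receptor, was at 184 TPM in ECs and 1.92 TPM in Runx1+ IAHCs, 96.3-fold lower (83.0 to 112). Emcn, a sialomucin of venous and capillary endothelium, was at 397 and 5.10 TPM, 78.1-fold lower (69.4 to 88.2). The intervals of the 2 libraries did not touch for any of these genes. Egfl7, a protein secreted by endothelium and blood progenitors, was the member within 4-fold, at 194 TPM in ECs and 53.3 TPM in Runx1+ IAHCs. Tie1, Eng, Icam2 and Cd93 kept 9.10 to 32.7 TPM in Runx1+ IAHCs, above Kdr and Clec14a, which were under 2 TPM there.

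Genes of vessel identity were lower still. Each of the 12 arterial genes compared passed the rule towards ECs (median -4.53), and so was each of the 6 venous and lymphatic genes (median -4.91). Among the arterial genes, the connexin Gja4 was at 217 TPM in ECs and 4.20 TPM in Runx1+ IAHCs, 52.5-fold lower (41.5 to 67.4). Hey1, a target of Notch signalling, was at 80.7 and 0.932 TPM, 89.4-fold lower (62.4 to 133). The Notch ligand Dll4 was at 16.2 and 0.459 TPM, 37.4-fold lower (23.1 to 64.7), and the ligand Jag1 and the receptor Notch4 stood 51.8-fold (38.4 to 71.6) and 140-fold (81.6 to 264) lower. The chemokine receptor Cxcr4 was the least apart of the 12 arterial genes compared, 5.52-fold lower (3.94 to 7.91), and below the 10 TPM minimum the ligand gene Jag2 was at 3.34 and 2.10 TPM. Of the venous genes, Aplnr, a receptor for apelin, was at 145 TPM in ECs and lacked reads in Runx1+ IAHCs, at least 1816-fold lower. Flt4, the VEGF-C receptor of lymphatic and venous endothelium, likewise had no read there and was at least 1274-fold lower. The transcription factor of venous identity Nr2f2 was 146-fold lower (90.7 to 250). For genes without a read in 1 library, 3 reads were put in its place, and the fold is a lower bound.

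Basement membrane and matrix genes made up another block on the EC side. Of 15 compared, 14 passed the rule towards ECs (median -4.45), the exception being Igfbp7 at 21.9 and 6.34 TPM. Type IV collagen, the scaffold of basement membranes, was represented by Col4a1 at 244 TPM in ECs and 3.71 TPM in Runx1+ IAHCs, 66.1-fold lower (58.8 to 74.7), and by Col4a2, 56.9-fold lower (51 to 63.6). The laminin binder Nid1 was at 119 and 0.806 TPM, 151-fold lower (116 to 200). Sparc, a calcium-binding matrix protein and the most abundant member, was at 645 TPM in ECs and 12.8 TPM in Runx1+ IAHCs, 50.6-fold lower (46.3 to 55.4). Caveolar genes were lower for 5 of 6 (median -3.63). Cav1, which builds the caveolar coat, was at 62.1 TPM in ECs and lacked reads in Runx1+ IAHCs (at least 726-fold lower), whereas Cavin2 was at 21.6 and 12 TPM.

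Junction genes that are not restricted to endothelium were split. Of 12 compared, 8 passed the rule, all towards ECs (median -2.57), among them Cdh2, Afdn and Tjp1, whereas Ctnnb1 (166 and 67.7 TPM), Jup and Jam3 were among the members within 4-fold. Signals from endothelium to mural cells were lower for 4 of 5 genes compared. Of the 8 genes listed, Pdgfb was not found by its symbol among the deposited genes, and 2 stayed below 10 TPM. Edn1, the precursor of endothelin-1, was at 78.6 and 0.735 TPM, 114-fold lower (69.0 to 204), and Apln, the ligand of Aplnr, was at 23.9 and 0.249 TPM. In the BMP and TGF-β pathway 3 of 11 genes passed the rule, and the receptors Tgfbr1, Tgfbr2 and Bmpr2 were not among them (differences -1.14, -1.49 and -1.82). Scaling to a median ratio of 1 brought the count to 6 of 11, with Bmpr2 at -2.07. Rescaling without mitochondrial-chromosome, ribosomal protein and hemoglobin genes brought the count to 7 of 13. The inhibitor of differentiation Id3, a BMP target, was at 567 TPM in ECs and 16.0 TPM in Runx1+ IAHCs, 35.6-fold lower (31.6 to 40.1), while Id1 and Id2 had differences of -1.54 and -1.90.

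**Figure D2:**
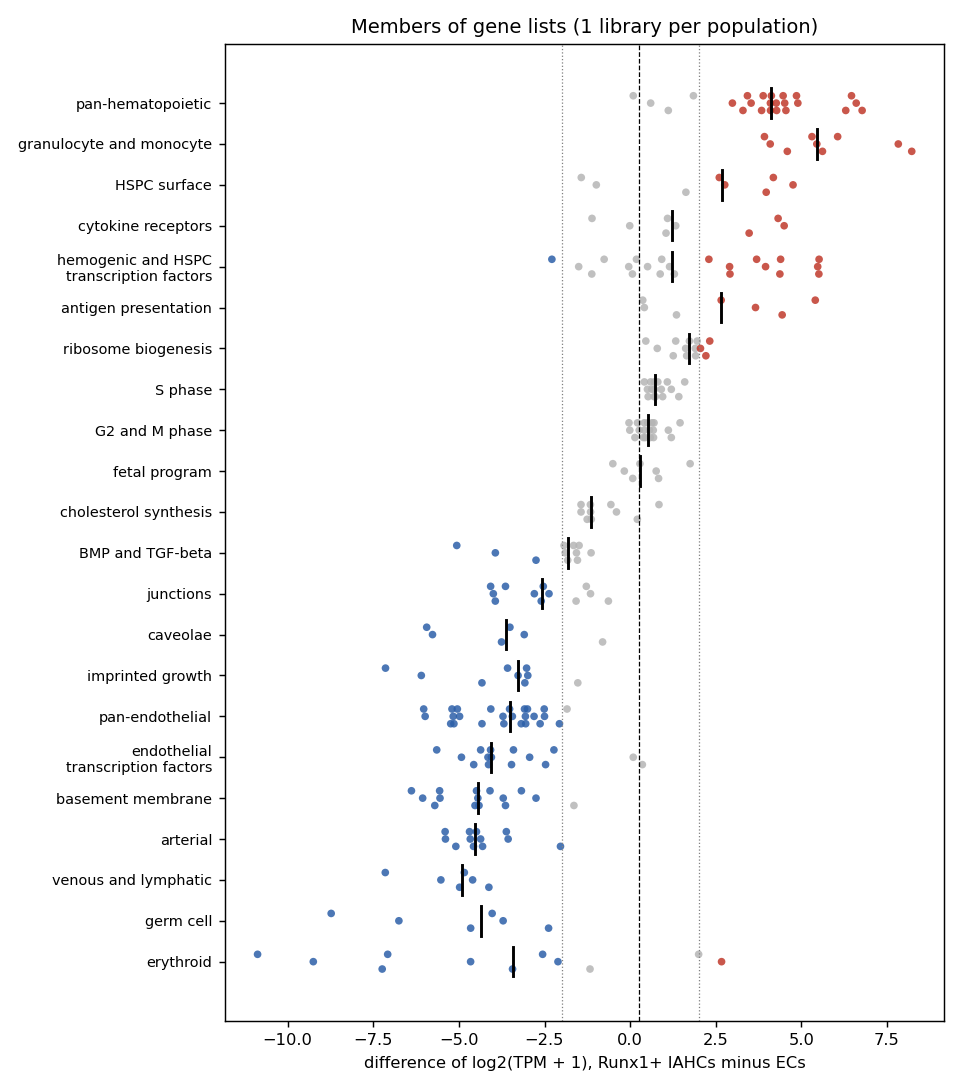
Difference of log2(TPM + 1), Runx1+ IAHCs minus ECs, for the compared members of 22 gene lists; every point is a gene, black bars are list medians, the dashed line is the median of all genes (0.27) and dotted lines mark 4-fold. The pan-hematopoietic and the granulocyte and monocyte lists lie to the right (medians 4.11 and 5.45), and the erythroid list to the left (median -3.43). Endothelial, vessel identity and matrix lists also lie to the left (medians -3.52 to -4.91), and cell cycle lists close to the line of all genes.

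Pan-hematopoietic genes showed the opposite order. Runx1+ IAHCs exceeded ECs by 4-fold or more for 20 of the 24 pan-hematopoietic genes compared, and the reverse held for 0 (median 4.11). The Runx1+ IAHC gate admitted CD45+ cells and the EC gate did not, so these differences cannot be told apart from the gating. Tyrobp (chromosome 7, 30413760 to 30417585), a signalling adaptor of myeloid receptors, was at 6.58 TPM in ECs (interval 4.48 to 8.86), against 734 TPM in Runx1+ IAHCs (interval 714 to 755), 115-fold higher (82.7 to 164). Coro1a, which binds actin in leukocytes, was at 1.58 and 226 TPM, 147-fold higher (106 to 211). The tetraspanin Cd53 had 1 read in ECs, at 0.136 TPM, and was at 88.2 TPM in Runx1+ IAHCs. Lcp1, Lyn, Inpp5d and Gmfg were the 4 members within 4-fold, and Lcp1 and Lyn were already at 58.0 and 24.4 TPM in ECs.

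Myeloid granule genes were the furthest apart of the blood cell lists with more than 4 genes compared. Each of 9 granulocyte and monocyte genes that reached 10 TPM passed the rule towards Runx1+ IAHCs (median 5.45), while 6 further genes of the list stayed below that level, and the summed level of the list was 10.8 TPM in ECs and 1277 TPM in Runx1+ IAHCs. Mpo (chromosome 11, 87793581 to 87804413), the peroxidase of primary granules, was at 0.658 TPM in ECs (interval 0.370 to 0.986) and 494 TPM in Runx1+ IAHCs (interval 486 to 501), 792-fold higher (501 to 1336). Prtn3, a serine protease of the same granules, was at 0.548 and 351 TPM, 732-fold higher (355 to 1820). Elane, the neutrophil elastase next to it on chromosome 10, had no read in ECs and was at 73.7 TPM in Runx1+ IAHCs, at least 203-fold higher. Genes of later granules were low in both libraries, with Ngp and Ltf at 0.114 TPM or less and Camp at 2.35 and 2.85 TPM. Of 12 macrophage genes only Ctss and Cd68 reached 10 TPM, and the complement genes C1qa, C1qb and C1qc were at 4.96 TPM or less in either library. The list summed to 16.3 TPM in ECs and 78.0 TPM in Runx1+ IAHCs. Below 10 TPM, Fcgr1 (0.0458 and 5.39 TPM) and Cx3cr1 (0.237 and 4.97 TPM) were higher in Runx1+ IAHCs, whereas C1qa had no read in either library.

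Other lineages were represented unevenly. Cpa3, the carboxypeptidase of mast cells and of some progenitors, had no read in ECs and was at 177 TPM in Runx1+ IAHCs (a ratio of at least 753), and Hdc, which makes histamine, was 321-fold higher (137 to 989). The mast cell protease gene Tpsb2 had a level of 0.110 TPM or less. In the lymphoid list Trbc2 and Trbc1, constant segments of the T cell receptor β chain, were at 278 and 46.8 TPM in Runx1+ IAHCs without a read in ECs, at least 540-fold and 98.2-fold higher. These 2 segments are near-identical and lie next to each other, so the division of reads between them is uncertain. Cd7 was at 21.7 TPM, whereas Cd3e and Dntt had levels of 0.0557 TPM or less in both libraries and Rag2 was at 4.02 TPM in Runx1+ IAHCs. The kinase gene Lck went the other way, at 28.7 TPM in ECs and 6.24 TPM in Runx1+ IAHCs.

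Red cell and platelet genes were higher in ECs for the most part. Among 11 erythroid genes compared, 8 passed the rule towards ECs and 1 towards Runx1+ IAHCs (median -3.43, and 0.28 without the globin genes). The embryonic globin gene Hba-x (chromosome 11, 32276400 to 32278116) was at 6410 TPM in ECs and 2.41 TPM in Runx1+ IAHCs, 2783-fold lower (1838 to 4441), the widest gap of all genes compared. Hbb-y, the embryonic β-like globin, was at 19127 TPM in ECs and 30.4 TPM in Runx1+ IAHCs, 632-fold lower (549 to 731). The globin copies share sequence, so how reads were divided between Hba-a1 and Hba-a2 or Hbb-bt and Hbb-bs is uncertain. The 1 higher gene was Klf1, the erythroid transcription factor, at 4.73 TPM in ECs and 35.4 TPM in Runx1+ IAHCs, 7.60-fold higher (5.82 to 10.1). Car2, a carbonic anhydrase, was at 34.3 and 140 TPM, at the edge of the rule with a difference of 2.00. Of 6 platelet genes compared 3 were lower, among them Pf4 at 360 and 67.1 TPM, and 1 was higher, Rgs18 at 1.17 and 108 TPM. The red cell membrane gene Slc4a1 was at 3.86 TPM in ECs and lacked reads in Runx1+ IAHCs. The part of red cell RNA in these values was not tested.

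Markers of other cells that an AGM sort could hold were mostly on the EC side as well. The 16 germ cell genes summed to 709.7 TPM in ECs and 10.2 TPM in Runx1+ IAHCs, and the 6 that reached 10 TPM passed the rule towards ECs. Dppa5a, an RNA-binding protein gene of germ and pluripotent cells, was at 490 TPM in ECs and lacked reads in Runx1+ IAHCs, at least 1030-fold lower. Dppa3 was at 119 TPM in ECs, also without a read in Runx1+ IAHCs, whereas Nanog and Pou5f1 were at 2.28 and 2.59 TPM in ECs. The germ cell RNA-binding protein genes Ddx4 (1.30 and 3.03 TPM) and Dazl (0.323 and 1.13 TPM) were low in both and higher in Runx1+ IAHCs, 2.38-fold (1.58 to 3.68) and 3.90-fold (1.70 to 10.5). The placental prolactin family gene Prl3b1 was at 117 TPM in ECs with no read in Runx1+ IAHCs, and the other 8 placental genes were at 0.435 TPM or less in ECs. Mural and mesenchymal genes summed to 209 TPM in ECs, of which Mcam, also an endothelial protein, made 163 TPM, and to 15.1 TPM in Runx1+ IAHCs. The smooth muscle actin gene Acta2 was at 19.2 TPM in ECs and 11.6 TPM in Runx1+ IAHCs, within 4-fold, and made most of the sum in Runx1+ IAHCs. Neural genes summed to 67.9 and 5.53 TPM, mesonephric epithelial genes to 19.9 and 4.33 TPM and hepatocyte genes to 15.6 and 8.66 TPM. The part of such cells in the differences was not tested.

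**Figure D3:**
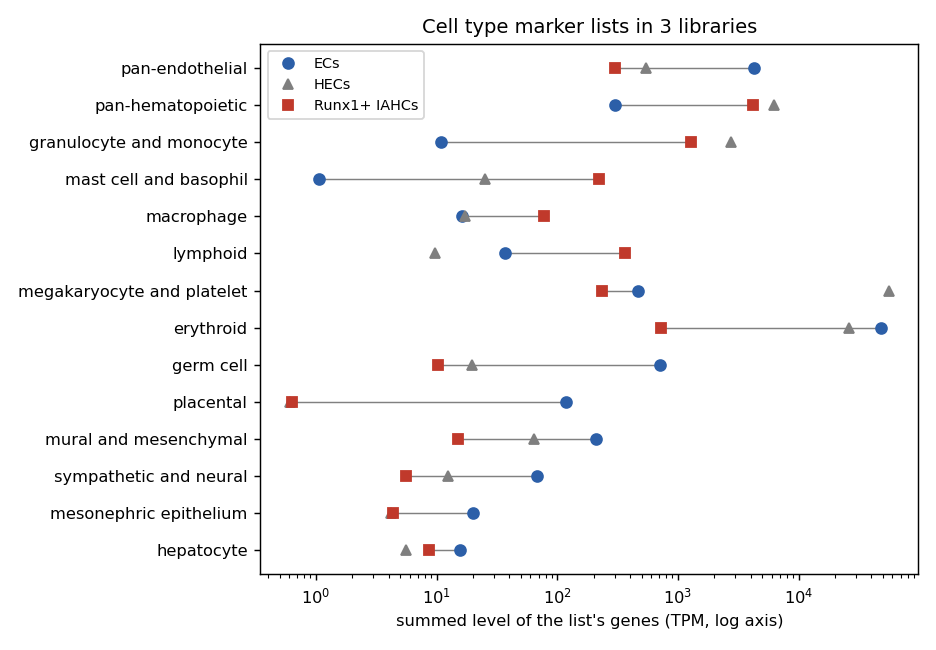
Summed level (TPM, log axis) of the genes of 14 marker lists in ECs (circles), Runx1+ IAHCs (squares) and, for orientation, HECs (triangles), 1 library each; grey lines join ECs and Runx1+ IAHCs. Endothelial, erythroid, germ cell and placental sums are higher in ECs, and granulocyte (10.8 against 1277 TPM), mast cell, lymphoid and pan-hematopoietic sums are higher in Runx1+ IAHCs.

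Transcription factors divided into genes nearly silent in ECs and genes present in both populations. Of 22 hemogenic and progenitor factors compared, 10 passed the rule towards Runx1+ IAHCs and 1 towards ECs (median 1.22). Spi1 (chromosome 2, 91082390 to 91115756) was at 0.176 TPM in ECs (interval 0.0272 to 0.386), against 52.6 TPM in Runx1+ IAHCs (interval 49.9 to 55.3), 398-fold higher (136 to 1932). Ikzf1 was at 0.575 and 71.1 TPM, 128-fold higher (87.9 to 195), and Myb at 0.637 and 33.4 TPM, 53.5-fold higher (40.1 to 73.0). Runx3, a relative of Runx1, had no read in ECs and was at 14.9 TPM in Runx1+ IAHCs, at least 209-fold higher. Gfi1 stayed just short of 10 TPM, at 0.0744 TPM with 1 read in ECs and 9.40 TPM in Runx1+ IAHCs. Its relative Gfi1b was at 1.23 and 27.9 TPM, 23.8-fold higher (14.9 to 40.5), and Hlf, a factor of stem cells, at 0.533 and 10.6 TPM, 20.5-fold higher (14.1 to 30.8). The erythroid and megakaryocytic factors Gata1 and Nfe2 were 45.7-fold (28.4 to 78.7) and 116-fold (71.1 to 203) higher.

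Factors shared by endothelium and blood progenitors mostly stood within 4-fold. Tal1 was at 25.1 and 26.3 TPM in ECs and Runx1+ IAHCs (ratio 1.05), with an interval of 0.962 to 1.15 that includes 1. Lmo2, its partner in DNA-bound complexes, was at 125 and 143 TPM (ratio 1.14, 1.08 to 1.20), and Gata2 at 13.0 and 25.5 TPM (ratio 1.97, 1.78 to 2.17). Hoxa9 was at 13.8 and 13.3 TPM, Hhex at 54.4 and 58.0 TPM and Mef2c at 22.2 and 28.7 TPM. Scaling to a median ratio of 1 would turn the small excess of Tal1, Lmo2, Hhex and Mef2c in Runx1+ IAHCs around or close to 0, so no direction is given for them. The ETS factors Fli1 and Erg were 2.21-fold (2.05 to 2.39) and 3.12-fold (2.68 to 3.65) lower in Runx1+ IAHCs, and Cbfb, which encodes CBFβ, was 1.71-fold lower (1.59 to 1.84). Mecom, a factor of stem cells and endothelium, was the 1 member past the rule in that direction, at 15.3 and 2.34 TPM, 6.55-fold lower (5.78 to 7.44).

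Factors of endothelial identity were lower for 13 of 15 genes compared, with a median of -4.05. The SoxF factors were represented by Sox17 at 23.8 TPM in ECs and 0.206 TPM in Runx1+ IAHCs, 129-fold lower (67.5 to 282), Sox7, 44.1-fold lower (35.0 to 56.4), and Sox18 at 280 and 10.9 TPM, 25.9-fold lower (22.3 to 30.3). Klf2, which responds to blood flow, was at 138 and 7.39 TPM, 18.8-fold lower (15.8 to 22.5). Epas1, the hypoxia-inducible factor of endothelium, was at 87.1 and 0.758 TPM, 118-fold lower (86.3 to 165). Ets1 stood 26.3-fold lower (22.5 to 31.0), in contrast to Fli1. Of 5 mesenchymal transition genes compared, 2 passed the rule towards ECs and 1 towards Runx1+ IAHCs (median -1.86). Snai1, a repressor of cadherin genes, was at 16.8 TPM in ECs and had no read in Runx1+ IAHCs, and the zinc finger factor Zeb1 was at 21.1 and 3.84 TPM. S100a4, a calcium-binding protein, was at 3.25 TPM in ECs and 24.6 TPM in Runx1+ IAHCs, while Vim (608 and 167 TPM) and S100a6 (11.9 and 22.3 TPM) stood within 4-fold.

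**Figure D4:**
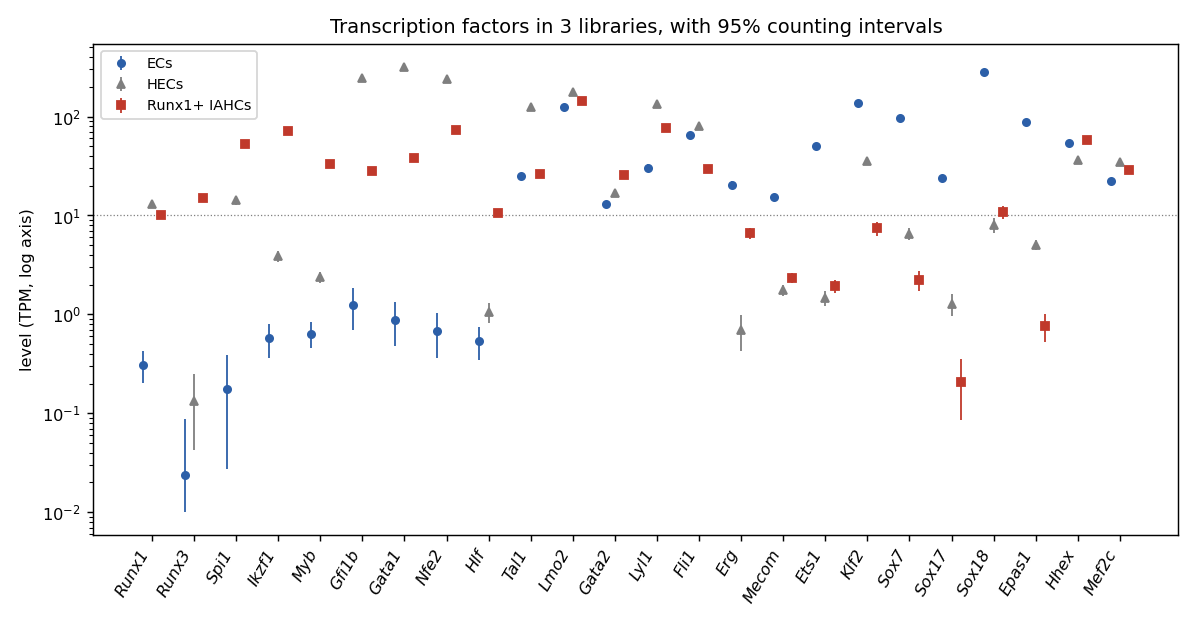
Levels of 24 transcription factor genes (TPM, log axis) in ECs (circles), HECs (triangles) and Runx1+ IAHCs (squares), 1 library each, with 95% counting intervals as bars (hidden where narrower than the symbol); the dotted line is 10 TPM. Runx3, Spi1, Ikzf1 and Myb are under 1 TPM in ECs and between 14.9 and 71.1 TPM in Runx1+ IAHCs, Tal1, Lmo2, Hhex and Mef2c have like levels in both, and Sox17 and Epas1 are below 1 TPM in Runx1+ IAHCs.

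Surface proteins and receptors that mark progenitors were partly shared with endothelium. Of 8 surface genes compared, 5 passed the rule towards Runx1+ IAHCs and 0 towards ECs (median 2.68). Adgrg1, the adhesion receptor GPR56, was at 3.92 and 88.2 TPM, 22.6-fold higher (19.5 to 26.4), and the hyaluronan receptor Cd44 at 11.8 and 76.7 TPM, 6.51-fold higher (6.01 to 7.06). Ly6e, an interferon-responsive GPI-anchored protein, was at 10.4 and 307 TPM, 29.6-fold higher (26.5 to 33.1). Cd34, carried by endothelium and progenitors alike, was at 267 and 134 TPM, 1.99-fold lower (1.94 to 2.04). Itga2b, which encodes the early blood marker CD41, was at 2.39 and 9.13 TPM, under the 10 TPM minimum. Of 8 cytokine receptor genes compared 3 were higher. The receptor Flt3, which marks multipotent and lymphoid-biased progenitors, had 1 read in ECs and was at 19.7 TPM in Runx1+ IAHCs. Csf1r, the M-CSF receptor, was at 0.291 and 13.3 TPM, 49.9-fold higher (27.7 to 100.4).

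Genes of growth and metabolism lay closer together. None of 16 S phase genes and none of 19 G2 and M phase genes compared was 4-fold apart, with medians of 0.72 and 0.51, which lay 0.45 and 0.25 above the median of all genes. Mcm6, a subunit of the replicative helicase, was the furthest, at 49.7 and 152 TPM, 3.06-fold higher (2.91 to 3.22). Ribosome biogenesis genes had a median of 1.73, 1.46 above all genes, and each of the 13 compared was higher in Runx1+ IAHCs, although only Rrp9, Polr1b and Wdr12 passed the 4-fold rule and 0 did after scaling to a median ratio of 1. Ncl, a nucleolar protein, was at 87.6 and 343 TPM, 3.92-fold higher (3.82 to 4.02), and Myc, which drives such genes, at 31.7 and 108 TPM, 3.40-fold higher (3.13 to 3.69). Cholesterol synthesis genes had a median of -1.15 with 0 of 10 past the rule. Of 11 glycolysis genes compared, 10 were higher in Runx1+ IAHCs (median 1.22), Pkm among them only without median-ratio scaling (-0.20 with it), and 9 stood within 4-fold. The 2 outside were the glucose carrier Slc2a1 at 199 and 33.8 TPM, 5.90-fold lower (5.54 to 6.28), and the hexokinase gene Hk2 at 4.45 and 23.9 TPM, 5.38-fold higher (4.67 to 6.23). With median-ratio scaling Hk2 was within 4-fold (difference 1.89).

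Imprinted genes of fetal growth were lower in Runx1+ IAHCs for 8 of 9 compared (median -3.27). Igf2, the fetal growth factor, was at 979 TPM in ECs and 120 TPM in Runx1+ IAHCs, 8.19-fold lower (7.99 to 8.4). Mest was at 302 and 1.15 TPM, 270-fold lower (201 to 370), and the zinc finger gene Plagl1 at 374 and 4.48 TPM, 83.7-fold lower (75.4 to 93.2). The maternally expressed Grb10, Cdkn1c and Igf2r were lower together with the paternally expressed Igf2, Mest, Peg3 and Plagl1. The fetal program genes, by contrast, had a median of 0.29, close to that of all genes, with Hmga2 at 107 and 113 TPM (ratio 1.05, 1.02 to 1.09) and Lin28b at 7.47 and 14.1 TPM. Antigen presentation genes passed the rule towards Runx1+ IAHCs for 4 of 7, among them the immunoproteasome gene Psmb8 at 0.173 and 48.7 TPM, 374-fold higher (128 to 1817), whereas B2m was at 715 and 953 TPM.

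By size alone, leaving out predicted genes, the 10 genes furthest towards Runx1+ IAHCs among those at 100 TPM or more were Mpo, Trbc2, Prtn3, Stfa1, Cpa3, Plac8, Fcgr3, Cd52, Tyrobp and Ptprcap. Plac8, a cysteine-rich protein of immune cells, was at 3.58 TPM in ECs and 732 TPM in Runx1+ IAHCs, 209-fold higher (157 to 285). Stfa1, a stefin that inhibits cathepsins, had no read in ECs and was at 239 TPM in Runx1+ IAHCs, but it belongs to a cluster of near-identical copies and its share of their reads is uncertain. The 10 furthest the other way were Hba-x, Hbb-y, Dppa5a, Hba-a2, Aplnr, Mest, Hba-a1, Igfbp3, Prl3b1 and Dppa3. Of these, Igfbp3, an IGF-binding protein, was at 135 TPM in ECs and had 2 reads in Runx1+ IAHCs. The most abundant genes past the rule on the IAHC side were Gpx1, a glutathione peroxidase, at 560 and 3472 TPM, Ifitm1 at 91.4 and 1342 TPM and Arhgdib, a GTPase regulator of blood cells, at 102 and 1193 TPM. On the EC side, after the globins, they were Gng11 at 1040 and 71.8 TPM, Igf2 and the tropomyosin gene Tpm4 at 799 and 117 TPM.

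Promoters of genes furthest apart, and of some other named genes, were searched for RUNX letters because RUNX1 separates the 2 gates. Only windows that held the letters are shown, so those printed were chosen by their match. Each window runs from 250 bases before to 50 after a RefSeq start site (GRCm38.p6) and is written 5′ to 3′ on the gene's strand, with the RUNX core letters TGTGGT or their reverse complement ACCACA in capitals. Both strands were searched. Of the 20 genes furthest apart, 13 had a window in the table, and 4 of these held the letters. Where the table gave several windows of a gene, the window listed foremost was used.
Cpa3 (chr3:20242132-20242431, minus strand): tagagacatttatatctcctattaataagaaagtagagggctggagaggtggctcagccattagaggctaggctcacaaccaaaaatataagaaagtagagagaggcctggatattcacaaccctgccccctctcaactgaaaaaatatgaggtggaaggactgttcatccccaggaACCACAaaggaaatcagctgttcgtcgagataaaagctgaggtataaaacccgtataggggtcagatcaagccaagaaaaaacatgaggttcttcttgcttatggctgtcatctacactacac
Plac8 (chr5:100572156-100572455, minus strand): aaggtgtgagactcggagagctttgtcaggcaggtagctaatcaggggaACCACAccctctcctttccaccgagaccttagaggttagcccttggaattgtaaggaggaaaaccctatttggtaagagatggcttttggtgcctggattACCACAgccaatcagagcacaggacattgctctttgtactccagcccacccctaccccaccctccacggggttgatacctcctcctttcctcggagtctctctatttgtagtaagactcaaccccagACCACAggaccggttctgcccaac
Stfa1 (chr16:36276898-36277197, plus strand): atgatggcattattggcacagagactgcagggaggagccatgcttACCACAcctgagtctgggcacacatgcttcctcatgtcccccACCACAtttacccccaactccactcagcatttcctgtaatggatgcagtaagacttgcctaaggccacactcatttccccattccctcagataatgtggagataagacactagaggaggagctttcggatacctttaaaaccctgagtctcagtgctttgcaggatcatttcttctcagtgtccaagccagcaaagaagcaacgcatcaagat
Runx3 (chr4:135120395-135120694, plus strand): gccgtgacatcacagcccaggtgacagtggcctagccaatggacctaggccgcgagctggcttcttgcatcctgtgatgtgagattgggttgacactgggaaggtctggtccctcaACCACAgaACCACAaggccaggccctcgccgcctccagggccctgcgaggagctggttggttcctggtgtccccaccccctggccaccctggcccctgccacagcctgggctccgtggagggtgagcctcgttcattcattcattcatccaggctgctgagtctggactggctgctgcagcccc
Igfbp3 (chr11:7213874-7214173, minus strand): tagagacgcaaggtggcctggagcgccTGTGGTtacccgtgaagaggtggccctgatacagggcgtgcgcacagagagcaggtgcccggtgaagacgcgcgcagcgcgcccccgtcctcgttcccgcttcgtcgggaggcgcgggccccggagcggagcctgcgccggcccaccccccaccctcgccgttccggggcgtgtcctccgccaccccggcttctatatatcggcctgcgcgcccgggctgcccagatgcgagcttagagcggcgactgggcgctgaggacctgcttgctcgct
Plac8 held 3 matches and Stfa1 and Runx3 held 2 each. The window of Igfbp3, a gene of the EC side, held 1. Those of Mpo, Prtn3, Fcgr3, Hba-a1, Hba-a2, Hba-x, Hbb-y, Mest and Prl3b1 held none. Among the other named genes searched, the windows of Ikzf1, Gfi1, Myb, Cldn5, Kdr and Gja5 held none either. The letters occurred in 16.9% of all 27025 windows and in 564 (12.1%) of the 4678 windows of genes compared. They were found in 58 (21.6%) of 268 windows of the higher genes and in 52 (11.9%) of 436 windows of the lower genes. A window was on hand for 268 of the 414 and for 436 of the 646 genes, under 80% in both cases, so a comparison of these shares is void. Base composition differed between the groups, with a median G+C content of 56.3% for the higher, 62.3% for the lower and 61.0% for all genes compared. A match describes letters and does not show binding.

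HECs, as the study names the ckit-CD45-Runx1(GFP)+ sort, were set beside the 2 libraries to describe where each gene stood in HECs. For each gene 4-fold apart, the share f of the log2 difference from ECs to Runx1+ IAHCs that HECs showed was taken, so that 0 is the EC level and 1 the Runx1+ IAHC level. The genes were chosen on 2 of these 3 libraries. Of the 646 genes lower in Runx1+ IAHCs, 545 (84.4%) were nearer to Runx1+ IAHCs than to ECs in HECs or beyond them, with a median f of 0.904. Of the 414 genes higher in Runx1+ IAHCs, 261 (63.0%) were, with a median f of 0.671. In ECs, HECs and Runx1+ IAHCs respectively, Cdh5 was at 401, 18.6 and 9.65 TPM and Col4a1 at 244, 14.9 and 3.71 TPM, so most of both differences was present in HECs. Ikzf1 (0.575, 3.89 and 71.1 TPM), Myb (0.637, 2.37 and 33.4 TPM), Runx3 (0.0237, 0.134 and 14.9 TPM) and Flt3 (0.0384, 0.0155 and 19.7 TPM) were nearer in HECs to the EC than to the Runx1+ IAHC level. Gfi1b (246 TPM), Gata1 (315 TPM) and Nfe2 (238 TPM) were higher in HECs than in either other library, and the megakaryocyte and platelet list summed to 55635 TPM there. Across ECs, HECs and Runx1+ IAHCs, pan-endothelial genes summed to 4307, 549 and 301 TPM and pan-hematopoietic genes to 302, 6273 and 4151.5 TPM. Granulocyte and monocyte genes summed to 10.8, 2736 and 1277 TPM and erythroid genes to 48573, 26004 and 730 TPM. What megakaryocytes, platelets or other blood cells add to the HEC values was not tested.

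**Figure D5:**
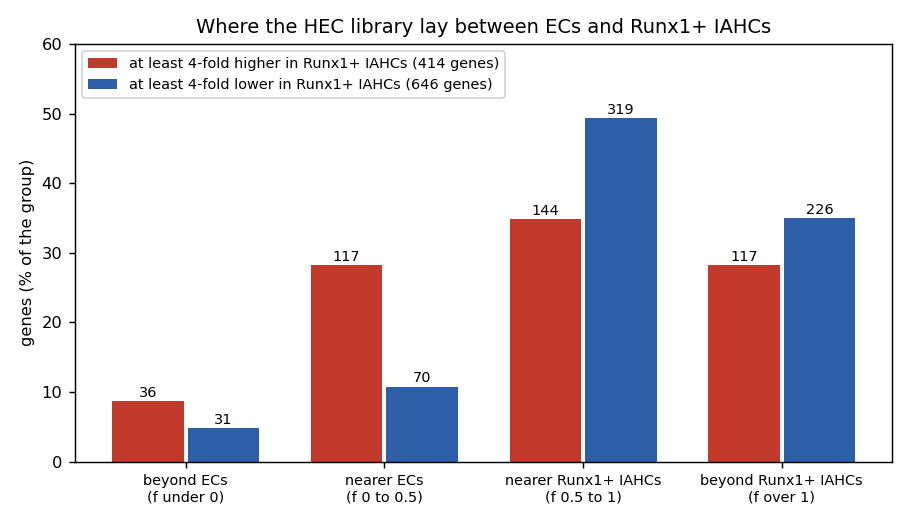
Share of genes (y axis, %) in each of 4 classes of f, the part of the log2 difference from ECs to Runx1+ IAHCs that HECs showed, for genes past the 4-fold rule towards Runx1+ IAHCs (red) and towards ECs (blue); numbers over bars are genes. Among lower genes 319 and 226 lie in the 2 classes at or past the Runx1+ IAHC side, and among higher genes 144 and 117, with 117 nearer to ECs.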

How the data were processed

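RNA of 4 sorted populations was sequenced as 1 library each, and the EC, Runx1+ IAHC and, for orientation, HEC libraries were used. Part of each lysate was reverse transcribed by template switching into full-length cDNA, per the study's methods, and short single reads were obtained from transposase libraries. Neither protocol marks the strand, so overlapping antisense genes cannot be separated. The authors aligned reads to GRCm38 (mm10) with HISAT2 2.0.4 (versions per the submitters' processing notes), counted them per gene in union mode and deposited linear TPM values. Union counting drops reads shared by overlapping genes, and genes with close copies (globins, stefins, Trbc1 and Trbc2, Dppa5a) are uncertain. The 18 columns of other samples beside them in the deposited file were not used.

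No TPM value was 0. Multiplied by exonic length, values were whole multiples of a step in each library, as if 1 read had been added to every gene. With annotated lengths this held for 49371 genes (96.4%) within 0.01 reads. For the other 1834 genes a length was found by search, which recovered the annotated length for 99.4% of 500 check genes. Reads of these 1834 genes are less certain (named genes among them include Runx1, Acta2, Stfa1, Ptprcap, Epas1, Psmb8, Csf1r, Igf2r, Hhex and Xist). Whether the authors added a read is not given in the sources used here. Reads after removal of the added read gave folds, exact 95% intervals (Poisson for a level, Clopper-Pearson for a ratio) and a floor of 3 reads. The deposited TPM printed for a gene still holds the added read, so a gene without a read has a small TPM. The difference of log2(TPM + 1) understates the change of low genes.

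With 1 library per group no test across samples was made, and genes were counted by size, at least 4-fold apart at 10 TPM or more. Samples were grouped by their labels. Some genes that the rule names are left out here. Members of 35 lists (497 genes) were described, with the 10 largest differences in each direction at 100 TPM or more and the 10 highest levels among genes 4-fold apart, both without predicted or clone-derived symbols. The members and lists were chosen with earlier results of these data known, and which members to describe was chosen after their values were seen. Alternatives were a pseudocount of 5, no minimum, a minimum of 50 TPM, median-ratio scaling, and rescaling without mitochondrial-chromosome, ribosomal protein and hemoglobin genes. Promoter windows came from RefSeq (GRCm38.p6), matched by symbol. The calculations were tested on simulated data. Python 3.11.15, numpy 2.4.6, pandas 2.3.3, scipy 1.17.1 and matplotlib 3.10.9 were used.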

Additional observations from a re-analysis of the deposited data

How the results depend on the processing

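Every fold rests on 1 library per population, so biological spread, embryo pooling and cell input cannot be told apart from the difference between populations. No paired analysis was possible because each group holds 1 library, and no library could be left out. As deposited, 414 genes stood 4-fold or more higher in Runx1+ IAHCs and 646 lower. A pseudocount of 5 left 215 and 348, all among those genes, since it compresses low levels. A minimum of 50 TPM left 131 and 186 of 2829 genes compared. No minimum gave 608 and 1104 of 51205. Scaling by the median ratio (0.806) moved the median of all genes from 0.27 to -0.07 and gave 281 and 737, with 281 and 646 shared. Rescaling without 420 mitochondrial-chromosome, ribosomal protein and hemoglobin genes gave 424 and 854, with 382 and 637 shared. The nuclear copies of mitochondrial genes, 10.8% of TPM in ECs and 6.28% in Runx1+ IAHCs, were kept in that rescaling. With the 50 TPM minimum fewer members were compared, and the counts became 4 arterial and 2 venous and lymphatic genes lower, and 11 pan-hematopoietic genes and 3 hemogenic and progenitor factors higher. A pseudocount of 5 left 6 of these factors higher. Without the hemoglobin genes 1 erythroid gene was lower. Hk2 in glycolysis (0 higher) and Runx1 and Ptprc among the sort markers (0 higher) no longer counted with a pseudocount of 5, a minimum of 50 TPM or median-ratio scaling. The median position of HECs moved little with a pseudocount of 5.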

Other observations

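Some gene groups outside the lists also stood apart, and all of those below were chosen after their values were seen. Subunits of the phagocyte NADPH oxidase were higher in Runx1+ IAHCs. Cyba was at 47.3 TPM in ECs and 396 TPM in Runx1+ IAHCs, 8.39-fold higher (7.58 to 9.31). Ncf1 was at 0.518 and 45.0 TPM, 92.7-fold higher (56.0 to 166). The catalytic subunit gene Cybb stayed at 5.19 TPM in Runx1+ IAHCs. For leukotriene synthesis, Alox5ap was at 16.7 and 335 TPM, 20.1-fold higher (17.5 to 23.3), and Alox5 at 0.116 and 18.4 TPM, whereas Lta4h, which acts later in that pathway, was at 33.9 and 45.1 TPM. The chemokine gene Ccl4 lacked reads in ECs and was at 89.9 TPM in Runx1+ IAHCs (at least 166-fold higher). Ccl9 was at 0.351 and 17.3 TPM. Ighm, the immunoglobulin μ heavy chain gene, lacked reads in ECs and was at 69.1 TPM in Runx1+ IAHCs, at least 366-fold higher.

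Of the DNA methyltransferases, Dnmt3b was at 9.90 TPM in ECs and 106 TPM in Runx1+ IAHCs, 10.7-fold higher (9.69 to 11.8). Dnmt3a was at 8.53 and 18.2 TPM, a ratio of 2.13 (2.00 to 2.28), and the maintenance enzyme gene Dnmt1 at 46.7 and 49.3 TPM. Beside Stfa1, the stefin genes BC117090 and BC100530 of the same cluster were at 76.9 and 43.6 TPM in Runx1+ IAHCs without a read in ECs, and Stfa2, Stfa3 and Stfa2l1 had no read in either library.

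Of 343 X-linked genes compared, 11 (3.21%) were 4-fold or more higher and 39 (11.4%) lower in Runx1+ IAHCs, against 5.49% and 8.27% of 7341 autosomal genes. Their median difference was 0.13, and that of autosomal genes 0.28. The X-inactivation transcript Xist was at 12.5 TPM in ECs and 2.37 TPM in Runx1+ IAHCs, 5.31-fold lower (4.78 to 5.91). The sex of the pooled embryos is not given in the sources used here, and its part in these values was not tested. Rhox5 (106 and 4.30 TPM), Plac1 (57.7 and 1.41 TPM), Rtl8a (156 and 14.1 TPM) and Maged1 (108 and 12.1 TPM) were among the X-linked genes higher in ECs. The cardiovascular long noncoding RNA Bvht was at 74.3 TPM in ECs and 1.69 TPM in Runx1+ IAHCs, 48.0-fold lower (26.6 to 96.9), and Mir142hg, the host transcript of a leukocyte microRNA, was at 21.2 TPM in Runx1+ IAHCs without a read in ECs.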
